A study of Arabidopsis thaliana with 15 samples.

Results

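The 8 genes described here, HAT1 (AT4G17460), HAT2 (AT5G47370), HAT3 (AT3G60390), HB-2 (AT4G16780, also called ATHB2 or HAT4), HB4 (AT2G44910), HAT22 (AT4G37790), HAT9 (AT2G22800) and HAT14 (AT5G06710), encode class II homeodomain-leucine zipper (HD-Zip II) transcription factors of Arabidopsis thaliana. They were chosen by gene identifier, with earlier results of these data known. All 8 were found among the 32678 named genes of the deposited table. RNA was sequenced from whole wild-type seedlings of ecotype Col, 10 days old, that had been moved from plates to liquid medium for 2 h before treatment. The groups, of 3 libraries each, were 5 µM GR24 4DO for 2 h, 5 µM GR24 4DO for 4 h, and solvent at 0 h (the start point), 2 h and 4 h. GR24 4DO, written GR244DO in the labels, is a synthetic strigolactone with the stereochemistry of the natural strigolactone 4-deoxyorobanchol. Nothing in the labels states that the 3 libraries of a group were grown separately, so the p-values cover the spread among libraries, which may be technical.

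HD-Zip proteins pair through a leucine zipper that lies next to a DNA-binding homeodomain. Class II members act mainly as repressors of transcription and recruit corepressors of the TOPLESS family. Several are known as early markers of shade: when phytochromes sense a low ratio of red to far-red light, phytochrome-interacting factors (PIFs) switch on HB-2, and auxin made in response to shade acts on other members and on elongation. HAT1 is also known as a partner of the brassinosteroid factor BES1, HAT2 as an auxin-induced gene, HAT3 and HB4 as factors of leaf polarity together with class III HD-Zip proteins, and HAT22 as a factor of abscisic acid responses. No role is given here for HAT9 and HAT14 beyond their family.

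The sequences that follow show a stretch that the 8 genes largely share. How often reads of one were counted for another was not tested. They are 60 coding bases around the recognition helix of the homeodomain, the part that contacts DNA, from RefSeq on TAIR10.1. Capitals mark bases that differ from HAT2 at the same position.
HAT2: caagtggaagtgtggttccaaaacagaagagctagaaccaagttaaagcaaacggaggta
HAT1: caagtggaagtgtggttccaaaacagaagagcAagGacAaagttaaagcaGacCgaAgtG
HAT3: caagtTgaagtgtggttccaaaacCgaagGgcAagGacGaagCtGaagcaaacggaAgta
HB-2: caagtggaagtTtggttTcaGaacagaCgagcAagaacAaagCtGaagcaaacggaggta
HB4: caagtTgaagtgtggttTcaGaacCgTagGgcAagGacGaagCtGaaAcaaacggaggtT
HAT22: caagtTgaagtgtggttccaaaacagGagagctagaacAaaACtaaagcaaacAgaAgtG
HAT9: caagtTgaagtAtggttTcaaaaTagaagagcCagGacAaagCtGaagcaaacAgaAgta
HAT14: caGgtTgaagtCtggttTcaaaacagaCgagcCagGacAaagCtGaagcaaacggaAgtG

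HAT1 differed from HAT2 at 7 of these 60 bases and HB4 at 13. Over the aligned bases of the coding sequences, with gaps left out, identity was 80.7% between HAT22 and HAT9 and 77.3% between HAT1 and HAT2. It was 76.5% between HAT3 and HB4, and 63.3% at the lowest of the 28 pairs. The longest stretch that any 2 of the 8 coding sequences had in common was 38 bases, in HAT1 and HAT2. The genes lie on chromosomes 2, 3, 4 and 5 of TAIR10.1. HB-2 (9449114 to 9450905) and HAT1 (9739518 to 9741234) are on the plus strand of chromosome 4, with HAT22 (17768042 to 17769676) on the same strand. HAT2 is on the minus strand of chromosome 5, at 19216271 to 19218007.

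The 250 bases upstream of the annotated start of HAT2 are shown because HAT2 was the member whose level was lower with GR24 4DO. They cover chr5:19218008-19218257 (minus strand, TAIR10.1), and capitals mark CATGTG, the letters of a PIF-binding E-box (PBE-box), at 118 to 113 bases before the annotated start.
HAT2: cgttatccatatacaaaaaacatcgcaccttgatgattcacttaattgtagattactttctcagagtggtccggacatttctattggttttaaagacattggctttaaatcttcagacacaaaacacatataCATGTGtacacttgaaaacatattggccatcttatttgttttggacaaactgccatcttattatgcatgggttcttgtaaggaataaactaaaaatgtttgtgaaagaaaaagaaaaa

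CATGTG, on either strand, was in 11.1% of the 27443 upstream windows of this length of protein-coding genes, that of HAT2 among them. The G-box CACGTG, in 6.5% of all windows, the auxin response element TGTCTC, in 10.9%, and the HD-Zip II site CAATNATTG, in 0.9%, were not found in the HAT2 window on either strand. A match is only a match of letters in this window.

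The 15 libraries held 24440802 to 37446533 reads assigned to genes, recovered as whole numbers from the RPKM values (reads scaled to gene length and library depth). Pairs of replicates were closer to each other than the rest in 3 groups: GR24 4DO 4 h replicates 1 and 2, solvent 2 h replicates 2 and 3, and solvent 4 h replicates 1 and 3 had a chi-square per degree of freedom of 1.12 to 1.84, against 3.72 to 18.6 in the other 12 pairs. No pair held the same reads, but whether the libraries of each of these 3 pairs came from 1 RNA sample is not known. If they did, the groups concerned hold fewer independent samples than libraries, and the p-values are too small. All 15 libraries were counted as separate samples, except where these near-identical pairs were averaged. All 8 root markers and 8 of 10 shoot markers were above 0 in every library, while the shoot stem cell genes WUS and CLV3 were at 0 in 13 and 12 libraries. Summed root markers lay between 66.0 and 68.8 RPKM with GR24 4DO and between 57.7 and 63.7 RPKM in solvent at 2 h, and at 4 h between 69.3 and 73.1 RPKM with GR24 4DO and between 70.6 and 74.1 RPKM in solvent. In solvent at 0 h they were at 61.0 to 65.8 RPKM. The shoot sum was dominated by 3 photosynthesis genes, RBCS1A (9029 to 16453 RPKM), LHCB1.1 (127 to 4230 RPKM) and LHCB2.1 (56.4 to 2090 RPKM). It was 11183 to 11832 RPKM with GR24 4DO and 12497 to 12773 RPKM in solvent at 2 h, then 10321 to 11770 RPKM with GR24 4DO and 9335 to 10745 RPKM in solvent at 4 h, and 18276 to 22080 RPKM in solvent at 0 h, the largest shift. The other 7 shoot markers summed to 95.4 to 101 RPKM with GR24 4DO and 88.0 to 93.9 RPKM in solvent at 2 h, then 98.5 to 105 RPKM with GR24 4DO and 107 to 110 RPKM in solvent at 4 h, and 71.1 to 78.4 RPKM in solvent at 0 h. The part of these shifts in the results was not tested, and in whole seedlings fewer cells of a type and less RNA per cell cannot be told apart.

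The 8 genes differed widely in level. On the RPKM scale, HAT22, HAT1 and HAT2 averaged 21.4, 19.6 and 16.3 RPKM over the 15 libraries, HB-2 and HAT3 8.88 and 7.40 RPKM, and HAT14, HAT9 and HB4 3.48, 3.20 and 1.68 RPKM. HAT22 rested on 686 to 1145 reads per library and HB4 on 32 to 57. HAT22, with lowest and highest library 1.26-fold apart, and HAT14, at 1.32-fold, varied little, while HAT2 varied 2.46-fold, HB-2 1.95-fold and HAT3 1.80-fold. In solvent at 0 h the order was HAT2, HAT1, HAT22, and the libraries of each overlapped those of the next. In both groups of 4 h it was HAT22, HAT1, HAT2, with no overlap between neighbours. Of the lower genes, HAT9 and HAT14 overlapped in all groups of 0 h and 2 h.

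**Figure D1:**
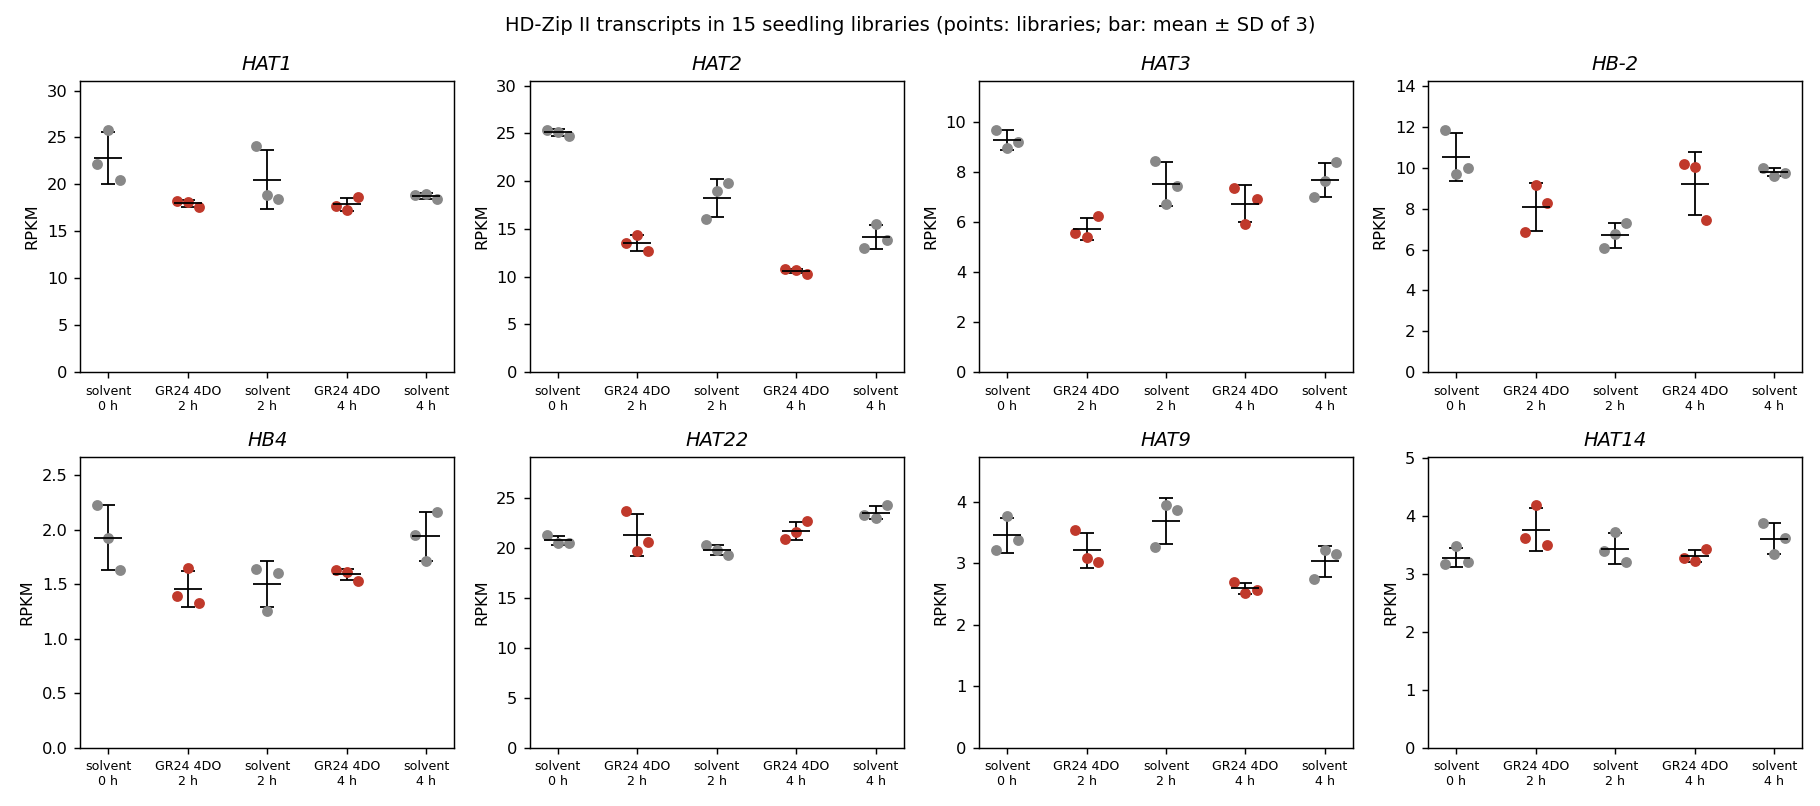
RPKM of the 8 HD-Zip II genes in each library, by group (red, GR24 4DO; grey, solvent), with the mean and SD of 3 libraries. HAT2 is highest in solvent at 0 h, at 24.7 to 25.4 RPKM, and lowest with GR24 4DO at 4 h, at 10.3 to 10.8 RPKM; HB-2 is lowest in solvent at 2 h.

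The comparison of GR24 4DO with solvent at 2 h asked which members respond early. HAT2 fell. Its libraries had 13.5, 14.4 and 12.7 RPKM with GR24 4DO, against 16.0, 19.0 and 19.8 RPKM in solvent. The groups did not overlap, and the solvent libraries were spread more widely, replicate 1 being the lowest. Means were 13.5 ± 0.831 RPKM with GR24 4DO and 18.3 ± 2.00 RPKM in solvent (SD, n = 3 each), a ratio of 0.742. The difference on the log2 scale of RPKM + 1 was -0.40 (SE 0.08, limma adjusted p = 0.0189). This was 1 of 8 members called lower at an adjusted p under 0.05, and 0 were called higher. Of the 19155 genes tested, 1.3% were called: 0.412% lower (79 genes) and 0.887% higher (170 genes). With quantile normalization 148 were lower and 121 higher, and with median-of-ratios scaling 100 and 104. Without any 1 of GR24 4DO replicates 2 and 3 and solvent replicates 1 and 2, 28 to 41 genes were lower and 64 to 89 higher.

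The call of HAT2 at 2 h was not firm. Its adjusted p was 0.115 without GR24 4DO replicate 3, 0.0862 without solvent replicate 2, 0.0735 without solvent replicate 3, 0.164 with near-identical pairs averaged and 0.097 in a fit of the 2 groups alone.

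HAT3 had the next lowest difference at 2 h. Its values were 5.55, 5.40 and 6.25 RPKM with GR24 4DO, against 8.45, 6.71 and 7.45 RPKM in solvent. The groups did not overlap, but the adjusted p was 0.0904 (log2 difference -0.34, SE 0.09). With the replicate number as a block, limma gave HAT3 an adjusted p of 0.0304. That fit called 5.35% of all genes at 2 h, against 1.3% without the block, so the gain is not particular to HAT3. HB4, the relative of HAT3 that shares its role in leaf polarity, had 1.39, 1.64 and 1.33 RPKM with GR24 4DO, against 1.64, 1.26 and 1.60 RPKM in solvent, and these groups overlapped.

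HB-2, the classical shade marker, differed in the other direction at 2 h but not beyond the spread. It had 6.85, 9.17 and 8.30 RPKM with GR24 4DO, against 6.08, 6.75 and 7.29 RPKM in solvent. The lowest GR24 4DO library lay within the solvent range. The log2 difference was 0.23, with a 95% interval of -0.01 to 0.48 (adjusted p = 0.29).

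HAT1, the closest relative of HAT2, had 18.2, 18.1 and 17.6 RPKM with GR24 4DO at 2 h, against 24.1, 18.9 and 18.5 RPKM in solvent. The groups did not overlap, and solvent replicate 1 stood well above the other solvent libraries. The log2 difference was -0.17 (95% interval -0.36 to 0.02, adjusted p = 0.325). HAT22, HAT9 and HAT14 overlapped between groups, with log2 differences of 0.10, -0.15 and 0.10 and adjusted p-values of 0.422, 0.346 and 0.501. Groups did not overlap in 3 of 8 members, against 26.2% of all genes tested.

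At 4 h the question was whether the response had persisted. HAT2 fell again, with 10.8, 10.7 and 10.3 RPKM with GR24 4DO against 13.0, 15.5 and 13.9 RPKM in solvent. The treated libraries were close together and all below the solvent libraries. Means were 10.6 ± 0.229 RPKM with GR24 4DO and 14.1 ± 1.28 RPKM in solvent (SD, n = 3 each), a ratio of 0.749. The log2 difference was -0.38 (SE 0.08, limma adjusted p = 0.00576). HAT2 passed in all 25 alternative fits at 4 h, with adjusted p of 0.00148 to 0.0494, so narrowly in 1 of them. With a library left out the highest was 0.0296. The fits that leave out a library of another group cannot change the difference itself, so they are not separate checks. The change was under 2-fold, so a 2-fold minimum removed it. HAT2 was again 1 of 8 members called lower, against 4.23% of all genes, and 0 members were called higher, against 4.69% (8.93% in either direction). Over all genes 811 were lower and 899 higher, and without any 1 of GR24 4DO replicates 1 and 2 and solvent replicates 1 and 3, 408 to 456 were lower and 479 to 515 higher.

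The other members did not pass at 4 h. HB4 had 1.63, 1.61 and 1.53 RPKM with GR24 4DO, against 1.95, 1.71 and 2.16 RPKM in solvent. HAT9 had 2.69, 2.52 and 2.57 RPKM with GR24 4DO, against 2.75, 3.21 and 3.16 RPKM in solvent. HAT22 had 20.9, 21.6 and 22.6 RPKM with GR24 4DO, against 23.3, 22.9 and 24.3 RPKM in solvent. In each of these 3 genes the treated libraries were the lower ones with no overlap, and the adjusted p-values were 0.277, 0.256 and 0.325.

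HAT3 and HB-2 overlapped between groups at 4 h, at log2 differences of -0.17 (adjusted p = 0.286) and -0.09 (adjusted p = 0.686). HB-2 had 1 low library. It had 10.2, 10.1 and 7.45 RPKM with GR24 4DO, against 9.99, 9.60 and 9.76 RPKM in solvent, and without GR24 4DO replicate 3 the log2 difference was 0.05. HAT1 had a log2 difference of -0.07 and HAT14 of -0.10. All 8 members had a difference below 0 at 4 h, and 5 of 8 at 2 h; among all genes tested 44.9% were below 0 at 4 h and 34.8% at 2 h. The members' median was -0.14 at 4 h and -0.09 at 2 h, beside medians of 0.02 and 0.06 over all genes. Groups did not overlap in 4 of 8 members at 4 h, against 33.5% of all genes.

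**Figure D2:**
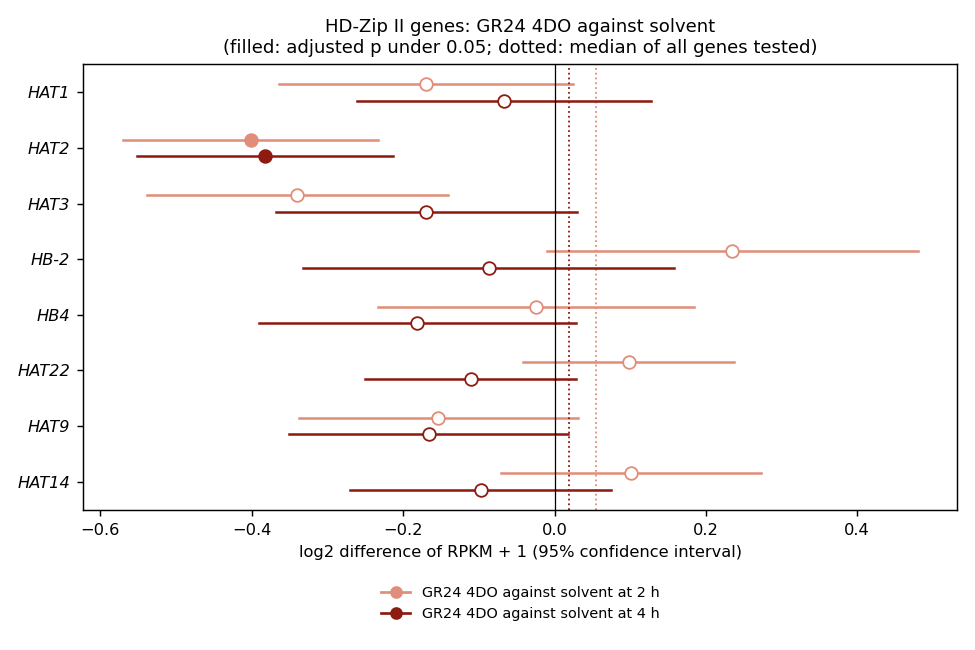
Log2 difference of RPKM + 1 between GR24 4DO and solvent at 2 h and 4 h for each of the 8 genes, with 95% confidence intervals from limma. HAT2 has the 2 filled points, at -0.40 and -0.38; the 4 h points of all 8 genes lie left of 0.

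The difference between the responses at 4 h and 2 h was tested for each member, and 0 of 8 passed with limma, where 1.72% of all genes did (0.961% higher and 0.757% lower, or 184 and 145 genes). Without any 1 of GR24 4DO 2 h replicates 2 and 3, GR24 4DO 4 h replicates 1 and 2 and solvent 4 h replicates 1 and 3, 117 to 127 genes were higher and 82 to 91 lower. HAT2 had a difference of 0.02 (95% interval -0.22 to 0.26), so its response at 4 h was not detectably larger or smaller than at 2 h. HAT22 was the 1 member with an unadjusted p under 0.05, as 11.1% of all genes had (-0.21, 95% interval -0.41 to -0.01, adjusted p = 0.409). For HB-2 it was -0.32 (95% interval -0.67 to 0.02, adjusted p = 0.51).

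The ratio of related members within a library does not depend on how libraries are scaled. The ratio of HAT2 to HAT1 in the same library was 0.742, 0.793 and 0.724 with GR24 4DO, against 0.663, 1.01 and 1.07 in solvent at 2 h. These groups overlapped: solvent replicate 1 had the highest HAT1 and the lowest HAT2 of its group. At 4 h the ratio was 0.607, 0.617 and 0.553 with GR24 4DO, against 0.687, 0.817 and 0.752 in solvent, with no overlap. At 0 h it had been 1.15, 0.973 and 1.21.

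The ratio of HAT9 to HAT22, the pair with the most similar coding sequences, averaged 0.151 ± 0.00508 with GR24 4DO and 0.187 ± 0.0228 in solvent at 2 h (SD, n = 3 each). At 4 h it averaged 0.120 ± 0.00809 with GR24 4DO and 0.129 ± 0.0112 in solvent, with overlap. For HB4 to HAT3 the groups overlapped at both times. No test was run on these ratios.

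**Figure D3:**
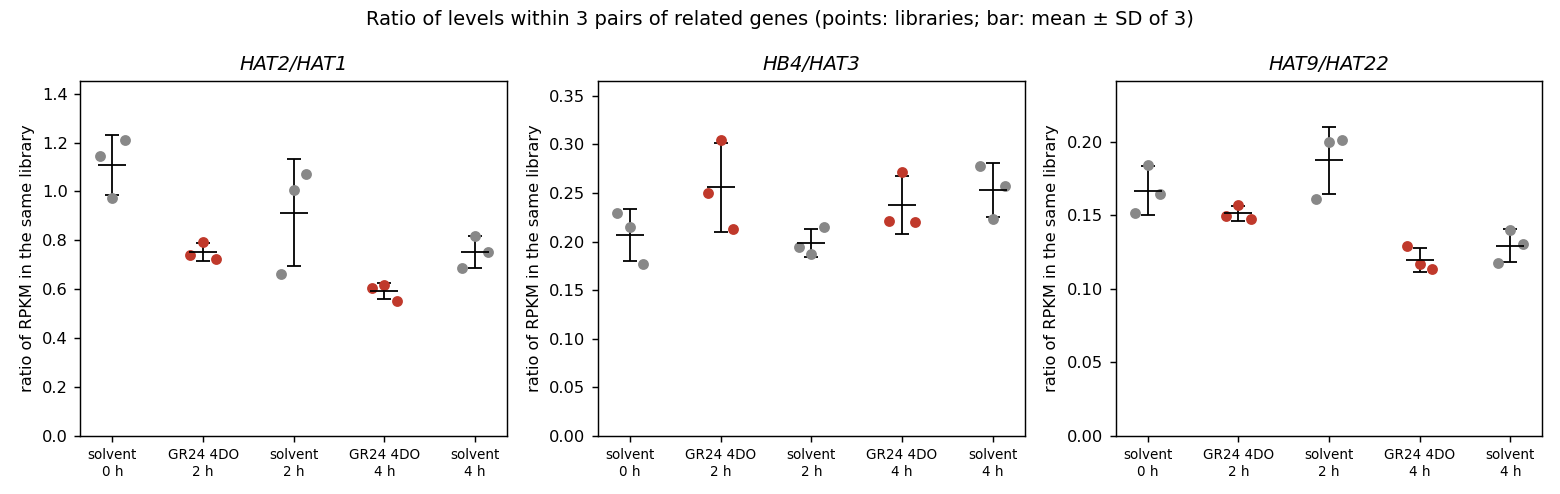
Ratio of RPKM within the same library for HAT2 to HAT1, HB4 to HAT3 and HAT9 to HAT22, by group (red, GR24 4DO; grey, solvent), with the mean and SD of 3 libraries. The ratio of HAT2 to HAT1 lies between 0.553 and 0.617 with GR24 4DO at 4 h, below the 0.687 to 0.817 of solvent.

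Later solvent libraries were compared with earlier ones to see how the members changed with no GR24 4DO. Hours of treatment, time of day and recovery from transfer to liquid medium cannot be told apart in these groups. HAT2 stepped down at each time: its means were 25.1 ± 0.332, 18.3 ± 2.00 and 14.1 ± 1.28 RPKM in solvent at 0 h, 2 h and 4 h (SD, n = 3 each). Both steps passed, with log2 differences of -0.44 for 2 h against 0 h (limma adjusted p = 0.000554) and -0.35 for 4 h against 2 h (0.00559); with near-identical pairs averaged, the second step had an adjusted p of 0.131. The GR24 4DO libraries of 2 h, at 12.7 to 14.4 RPKM, overlapped the solvent libraries of 4 h, at 13.0 to 15.5 RPKM.

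HB-2 fell and then rose. Its values in solvent were 11.9, 9.71 and 10.0 RPKM at 0 h, then 6.08, 6.75 and 7.29 RPKM at 2 h, then 9.99, 9.60 and 9.76 RPKM at 4 h. The 2 h libraries lay below all others. The log2 difference was -0.58 for 2 h against 0 h (SE 0.12, adjusted p = 0.00132) and 0.49 for 4 h against 2 h (SE 0.12, adjusted p = 0.00688; 0.0507 with near-identical pairs averaged).

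HAT3 fell at 2 h to 8.45, 6.71 and 7.45 RPKM, against 9.71, 8.95 and 9.20 RPKM at 0 h (log2 difference -0.27, adjusted p = 0.0383). It missed the threshold when solvent 0 h replicate 1 (0.114) or 3 (0.0727), or solvent 2 h replicate 2 (0.177) or 3 (0.0935), was left out, with near-identical pairs averaged (0.107), with no filter (0.0588) and in a fit of the 2 groups alone (0.0807). HAT3 then stayed near that level, with a log2 difference of 0.03 for 4 h against 2 h (95% interval -0.17 to 0.23).

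HAT22 rose between 2 h and 4 h, with 23.3, 22.9 and 24.3 RPKM at 4 h against 20.3, 19.8 and 19.3 RPKM at 2 h. The log2 difference was 0.24 (adjusted p = 0.017). It did not pass without solvent 2 h replicate 3 (0.0584) or solvent 4 h replicate 3 (0.0731), or with near-identical pairs averaged (0.164). HAT9, its relative, differed in the other direction at -0.22 (adjusted p = 0.0881; 0.0415 without solvent 2 h replicate 1). HB4 was at -0.23 and then 0.23, with adjusted p-values of 0.101 and 0.103, the first at 0.0491 with median-of-ratios scaling. HAT1 was at -0.15 and -0.11 (adjusted p = 0.234 and 0.423), the first at 0.0171 without solvent 2 h replicate 1. HAT14 was at 0.05 in both steps, with adjusted p-values of 0.682 and 0.676.

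Of the 8 members, 3 were thus lower and 0 higher at 2 h against 0 h, where 28.7% of all genes were called, 9.66% lower and 19% higher. With median-of-ratios scaling the split over all genes was 2628 lower and 2176 higher, and with quantile normalization 2538 and 2563, against 1850 and 3644 without them. At 4 h against 2 h, 2 members were higher and 1 lower, where 21.3% of all genes were called, 11.8% higher and 9.5% lower (2265 and 1820 genes). Without solvent 4 h replicate 1 it was 1472 and 1104 genes, and without replicate 3 it was 1499 and 1160. Groups did not overlap in 4 of 8 members in the first step, against 36.5% of all genes, and in 5 of 8 in the second, against 39.2%.

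**Figure D4:**
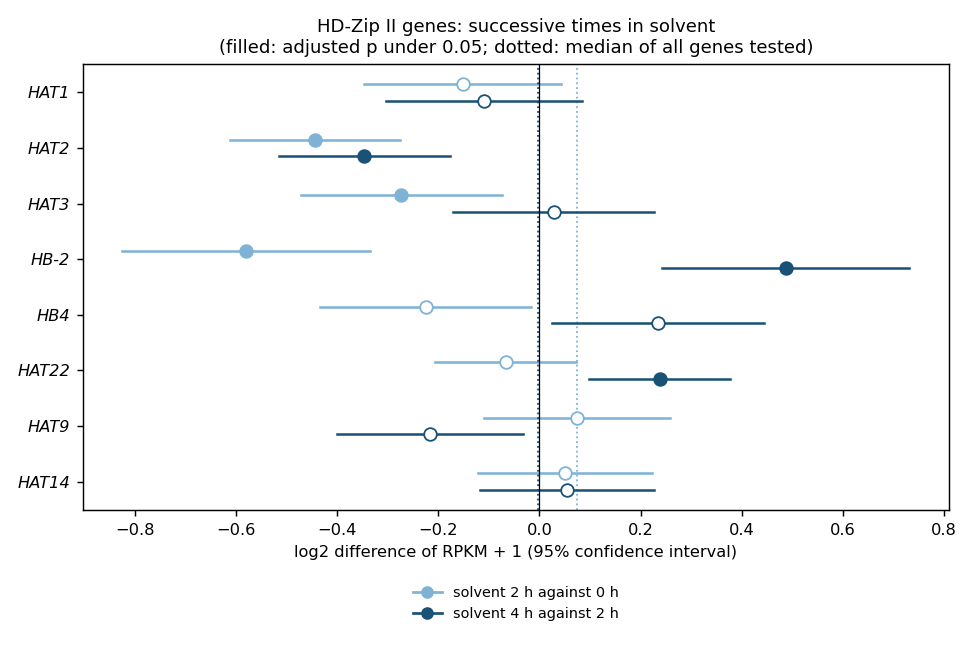
Log2 difference of RPKM + 1 between successive solvent times for each of the 8 genes, with 95% confidence intervals from limma. HAT2 lies below 0 in both steps, at -0.44 and -0.35, while HB-2 moves from -0.58 in the first step to 0.49 in the second.

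Related genes were read in the same fit. Of 5 class III HD-Zip genes, 5 TOPLESS corepressor genes and 5 phytochrome genes, and of the other HD-Zip II genes HB17 and HB18, 0 were called with GR24 4DO at either time. Of all genes, 1.3% were called at 2 h and 8.93% at 4 h. In a fit of the 2 groups alone, 1 gene of each of the first 3 lists was called at 4 h, as were 1 TOPLESS and 1 phytochrome gene without solvent 0 h replicate 1 and 2 phytochrome genes without solvent 0 h replicate 2. Their median log2 differences were 0.05, 0.16 and 0.19 at 4 h and 0.06, 0.12 and 0.06 at 2 h in the first 3 lists, beside 0.02 and 0.06 over all genes. At 2 h the unadjusted p was under 0.05 for 1 class III gene and 1 TOPLESS gene, against 18.3% of all genes. At 4 h their unadjusted p was under 0.05 for 2 class III, 2 TOPLESS and 2 phytochrome genes and for HB17, against 24.1% of all genes. HB17 had 2.59 ± 0.0274 RPKM with GR24 4DO and 2.00 ± 0.0802 RPKM in solvent (SD, n = 3 each, log2 difference 0.26, adjusted p = 0.13).

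Among 9 genes of auxin synthesis and auxin-induced repression, all calls with GR24 4DO were lower ones. At 2 h 1 of 9 fell and 0 rose, where 0.412% of all genes were lower and 0.887% higher. The median log2 difference was -0.24, and 7 had an unadjusted p under 0.05, against 18.3% of all genes. The count that fell at 2 h was 3 with the replicate block or quantile normalization, 2 with median-of-ratios scaling, without the variance trend or without solvent 0 h replicate 1 or 2, and 0 with a filter of 5 RPKM. At 4 h 5 of 9 fell and 0 rose, with a median of -0.36, where 4.23% of all genes were lower and 4.69% higher. That count was 3 without solvent 4 h replicate 3, 3 with the filter of 5 RPKM and 2 with near-identical pairs averaged. The filter of 5 RPKM left the YUC genes and IAA29 untested, so its counts are over fewer genes. IAA29, an auxin-induced repressor, fell at 2 h to 0.53 ± 0.177 RPKM with GR24 4DO, against 1.29 ± 0.018 RPKM in solvent. Its limma adjusted p was 0.00455, with 0.0547 when near-identical pairs were averaged and 0.0599 in a fit of the 2 groups alone. With GR24 4DO it lay under the filter of 1 RPKM, which it passed only through solvent at 0 h and 2 h, where it was high. IAA29 is the 1 gene counted at 2 h and is among the 5 at 4 h. Both counts thus include a gene let in by its high groups, and the 2 h count holds no other. At 4 h IAA19, another such repressor, fell to 2.93 ± 0.168 RPKM with GR24 4DO, against 6.50 ± 0.14 RPKM in solvent (log2 difference -0.93, adjusted p = 6.74e-05).

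TAA1, whose enzyme makes the precursor of auxin, fell at 4 h to 12.7 ± 0.907 RPKM with GR24 4DO, against 16.6 ± 0.972 RPKM in solvent (adjusted p = 0.00692). YUC3 and YUC5, whose enzymes turn that precursor into auxin, fell by 0.45 and 0.43 on the log2 scale (adjusted p = 0.00685 and 0.00962), at 0.0625 and 0.091 with near-identical pairs averaged; YUC5 was at 0.0597 without solvent 4 h replicate 3. IAA29 was also called at 4 h (adjusted p = 0.0254), but not without any 1 of GR24 4DO replicates 1 to 3 or solvent replicates 1 and 3 (0.0569 to 0.107) or with near-identical pairs averaged (0.27). Both of its means at 4 h, 0.315 RPKM with GR24 4DO and 0.694 RPKM in solvent, lay under the filter of 1 RPKM.

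Among the PIFs and shade-induced regulators, 8 of 9 genes were tested, as PIL1 lay below the filter. At 2 h 0 were called, against 1.3% of all genes, with 3 at an unadjusted p under 0.05, against 18.3%. At 4 h 3 fell and 0 rose, where 4.23% of all genes were lower and 4.69% higher. The medians of the list were 0.02 at 2 h and -0.13 at 4 h. With the replicate block 2 fell at 2 h, and 1 fell when solvent replicate 2 of 2 h, or replicate 2 or 3 of GR24 4DO at 4 h, was left out. At 4 h 1 fell with near-identical pairs averaged, with no filter, with limma-voom, or without any 1 of GR24 4DO 4 h replicate 2 and solvent 4 h replicates 1 to 3. PIF3 fell to 9.95 ± 0.697 RPKM with GR24 4DO, against 15.2 ± 0.519 RPKM in solvent at 4 h (log2 difference -0.57, adjusted p = 8.99e-05). PAR1 and PAR2, which encode inhibitors of growth in shade, were called at adjusted p of 0.0377 and 0.0473. Their calls ended in 8 and 13 of 25 alternative fits, limma-voom on reads (0.0585 and 0.054) and the averaging of near-identical pairs (0.316 and 0.206) among them. PIF4, PIF5 and PIF7, the factors best known for switching on HB-2, had log2 differences of 0.04, -0.19 and -0.07 at 4 h, none called.

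In solvent PIF4 and PIF5 moved against HB-2 in the second step. In the first step, when HB-2 fell, PIF5 was lower too (log2 difference -0.27, limma adjusted p = 0.0107). PIF5 missed the threshold there without solvent 0 h replicate 3 (0.0528) and in a fit of the 2 groups alone (0.0753). PIF4 was at -0.01 in that step (adjusted p = 0.946). These are transcript levels, and a link between PIFs and HB-2 was not tested. Between 2 h and 4 h, when HB-2 rose, PIF4 fell to 10.3 ± 0.793 RPKM at 4 h, against 21.8 ± 2.82 RPKM at 2 h (adjusted p = 3.92e-07), and PIF5 fell to 20.9 ± 0.95 RPKM at 4 h, against 37.7 ± 3.69 RPKM at 2 h (adjusted p = 1.1e-06). In that step 5 of 8 genes of this list, 5 of 9 auxin genes and 3 of 5 phytochrome genes fell and 0 rose, against 9.5% lower and 11.8% higher over all genes. With near-identical pairs averaged, PIF7 (0.0615), HFR1 (0.088), YUC2 (0.117), PHYB (0.148) and PHYD (0.24) missed the threshold, which left 3, 4 and 1 genes. The phytochrome count was also 1 without solvent 2 h replicate 3 or solvent 4 h replicate 1. With the filter of 5 RPKM, under which the YUC genes and IAA29 were not tested, the auxin count was 1. PHYD passed in 11 of 25 alternative fits, and HFR1 missed in 6 of 24. PHYA fell to 17.4 ± 0.667 RPKM at 4 h, against 24.0 ± 0.266 RPKM at 2 h (adjusted p = 0.000611). Between 0 h and 2 h, when HB-2 and HAT2 fell, IAA29 fell to 1.29 ± 0.018 RPKM at 2 h, against 3.27 ± 0.262 RPKM at 0 h (adjusted p = 3.27e-06). The corepressor genes TPR1 and TPR3 rose by 0.32 and 0.49 on the log2 scale (adjusted p = 0.000632 and 0.000138). In this step 3 of 9 auxin genes and 2 of 8 PIF and shade genes were lower and 0 higher. Of 5 TOPLESS and 5 class III genes, 2 and 1 were higher and 0 lower. Over all genes 9.66% were lower and 19% higher. Of these calls, IAA19, PAR2 and PHV missed the threshold in 6, 12 and 7 of 25 alternative fits.

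**Figure D5:**
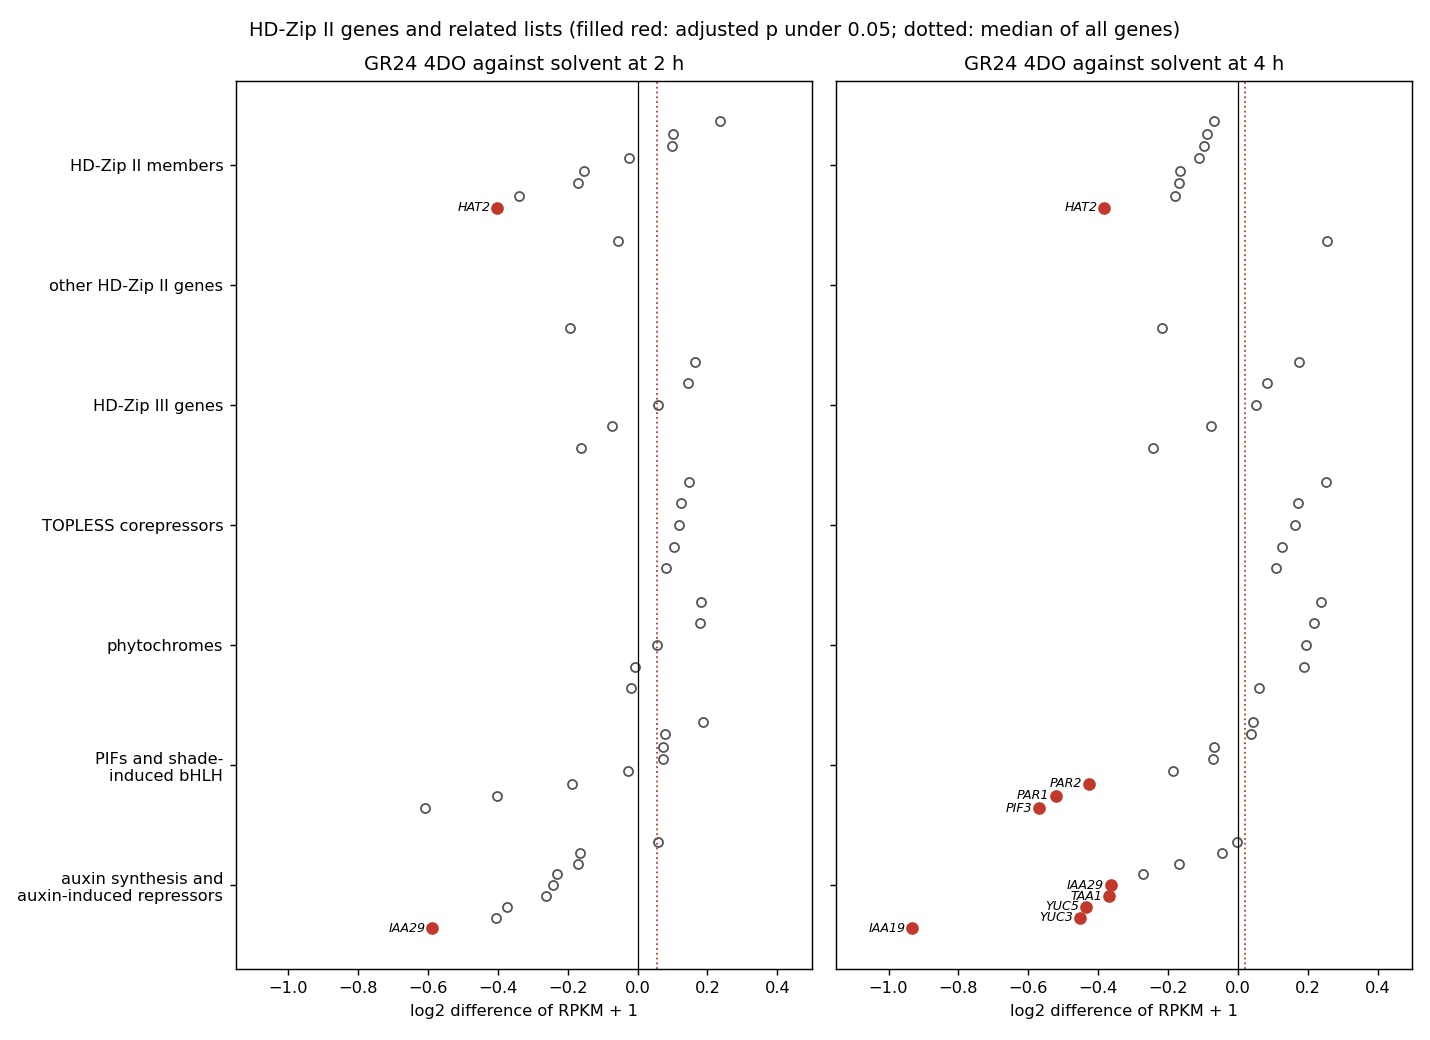
Log2 difference of RPKM + 1 between GR24 4DO and solvent at 2 h (left) and 4 h (right) for the 8 HD-Zip II genes and 6 lists of related genes; each point is a gene, filled red where limma's adjusted p was under 0.05, and the dotted line is the median of all genes tested. Called genes lie left of 0: HAT2 and IAA29 at 2 h, and HAT2, 3 PIF and shade genes and 5 auxin genes at 4 h.

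The genes whose pattern over the 15 libraries was most like that of HAT2, by Pearson's r of log2(RPKM + 1) among the genes tested, were NPH3 (r = 0.974), AT5G62280 (0.971) and AT5G44260 (0.965). The libraries share groups, so this is a description. NPH3 encodes a component of phototropin signalling in phototropism, and AT5G44260 the zinc finger protein TZF5. With GR24 4DO at 4 h NPH3 was at 25.5 ± 0.828 RPKM, against 28.8 ± 0.604 RPKM in solvent. AT5G62280 was at 4.70 ± 0.716 RPKM with GR24 4DO, against 12.2 ± 1.35 RPKM in solvent, and AT5G44260 at 4.94 ± 0.098 RPKM with GR24 4DO, against 9.69 ± 1.22 RPKM in solvent (SD, n = 3 each). Like HAT2, all 3 had their highest group mean in solvent at 0 h and their lowest with GR24 4DO at 4 h. As they were picked for their likeness to HAT2 over these same libraries, such shared features largely come with the choice and are no further result.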

How the data were processed

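The authors deposited 1 table of RPKM values per gene and library; STAR, featureCounts, DESeq and the build TAIR10 are named per the submitters' processing notes, without their order. Versions, strand and handling of multi-mapped reads were not found in the labels. Whole reads were recovered from the RPKM values for all 347846 values above 0 (tolerance 0.02 reads); 3 reads in 1 kb correspond to 0.0801 to 0.123 RPKM, and such floors cover counting error only. The 1 entry with no gene name was left out.

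A floor of 1 RPKM, reached by a gene in 3 libraries or more, left 19155 genes, which entered limma 3.58.1 in R 4.3.3 on log2(RPKM + 1), which understates changes of low genes, with 1 fit of all 15 libraries and a variance trend. Benjamini-Hochberg adjusted p under 0.05 over all genes counted as called. Alternatives covered scaling, filter, pseudocount, trend, groups in the fit, a replicate block, limma-voom, near-identical pairs and each library left out. Same-numbered libraries at 2 h had residual correlations of 0.179, 0.133 and 0.101. The block is therefore given beside members and lists whose count it changes over 1.5 times at 2 h. At 4 h the correlations of same-numbered libraries were -0.183, 0.491 and 0.407, and those of differently numbered libraries ranged from -0.577 to 0.403.

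Gene models and sequences came from RefSeq on TAIR10.1, aligned with Biopython 1.88; the recovered gene lengths differ from this annotation. Members, lists and alternatives were chosen with earlier results of these data known. All members were named in every contrast, called genes of the 6 lists in GR24 4DO contrasts, up to 3 per list in solvent contrasts, and the 3 genes most like each member called with GR24 4DO. Some upstream sequence is not reported here.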

Additional observations from a re-analysis of the deposited data

How the results depend on the processing

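The count of members called with GR24 4DO at 2 h was 1. It was 0 in a fit of the compared groups only, 0 with near-identical pairs averaged, 0 with a 2-fold minimum change, and 2 with the replicate block, which added HAT3 and changed no other call of a member. It ranged from 0 to 1 with a library left out. At 4 h the count was 0 with the 2-fold minimum. In solvent it was 0 with that minimum in both steps, and 0 with near-identical pairs averaged at 4 h against 2 h. Over 985 results of single members under alternatives, 940 kept sign and side of the threshold, 17 lost a call, 4 gained one and 24 changed sign, 0 of these while called. The 940 are no measure of how firm the calls are, as most results were not called in the main fit and had no call to lose. Among called results, HAT3 missed in 7 of 25 fits (solvent, 2 h against 0 h) and HAT2 in 5 of 25 (GR24 4DO, 2 h). HAT14 was at -0.00069 with quantile normalization (GR24 4DO, 2 h), and at -0.017 with quantile normalization and -0.015 with median-of-ratios scaling (solvent, 2 h against 0 h). With near-identical pairs averaged, HAT2 was at -0.065 (difference of responses) and HAT3 at -0.00855 (solvent, 4 h against 2 h). HAT9 was at 0.020 with quantile normalization and 0.013 with median-of-ratios scaling (difference of responses). With each library left out, the difference of responses ranged from -0.014 to 0.169 in HAT1, -0.038 to 0.107 in HAT2 and -0.066 to 0.055 in HAT9. The solvent difference of 4 h against 2 h ranged from -0.176 to 0.0068 in HAT1 and -0.043 to 0.105 in HAT3, and the difference with GR24 4DO from -0.158 to 0.046 in HB-2 at 4 h and -0.097 to 0.017 in HB4 at 2 h. The cause was not tested.

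Over all genes, the replicate block gave 777 higher and 248 lower genes with GR24 4DO at 2 h and 1561 and 1186 at 4 h, and averaging near-identical pairs gave 45 and 22 at 2 h and 260 and 204 at 4 h, against 170 and 79, and 899 and 811. In a fit of the compared groups only it was 81 and 33 at 2 h and 1233 and 1213 at 4 h. HB4, at 32 to 57 reads per library, had a 95% interval of -0.39 to 0.03 with GR24 4DO at 4 h. HB4, HAT9 and HAT14 were not tested under a filter of 5 RPKM.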
